A study of Mus musculus with 2 samples.

Results

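Semaphorins are guidance proteins that steer growing axons, migrating neurons and blood vessels, and plexins and neuropilins are the receptors through which they act. Plexins span the membrane and carry the signalling domain inside the cell, whereas neuropilins bind secreted semaphorins and pass the signal on through a plexin partner. In the newborn forebrain these proteins act while cortical and commissural tracts are still growing and synapses are starting to form. The family was taken as every mouse protein-coding gene whose symbol names a semaphorin of classes 3 to 7, a plexin of types A to D, or Nrp1 or Nrp2. It held 31 of the 43346 genes quantified, of which 21474 were protein-coding. There were 20 semaphorins, 9 plexins and 2 neuropilins.

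Total RNA longer than 200 nt, depleted of ribosomal RNA, was sequenced from the forebrain of healthy mice of strain B6NTac;B6NCrl/Lap at postnatal day 0, with males and females pooled. There were 2 libraries and 1 group. Replicate 1 came from 15 mice and replicate 2 from pooled mice of unstated number, and the tissue of each was isolated separately. The labels give both libraries the same donor identifier, so errors measure the spread between these 2 pools and may be partly technical.

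The libraries held 62516003 expected counts in replicate 1 and 65912060 in replicate 2, of which the family held 137829 in replicate 1 and 195046 in replicate 2. Protein-coding genes held 69.3% of counts in replicate 1 and 77.5% in replicate 2, but 13.5% of TPM in replicate 1 and 22.0% in replicate 2. Levels are therefore given as coding TPM, the deposited TPM of a gene divided by the sum over protein-coding genes and multiplied by 1000000. In bulk tissue, fewer cells of a type and less RNA per cell cannot be told apart. All 9 telencephalon markers listed were at 1 coding TPM or more in both libraries, and 6 of 8 hindbrain and spinal cord markers had 0 counts in both, against a floor of 3 counts. The other hindbrain and spinal cord markers were Egr2 and Hoxa3. Egr2 had 2.36 coding TPM in replicate 1 on 124 counts and 1.27 in replicate 2 on 81 counts. Hoxa3 had 10 counts in replicate 1 and 0 in replicate 2.

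The family was broadly transcribed in newborn forebrain. Of the 31 members, 30 reached 1 coding TPM in both libraries, against 63.3% of all protein-coding genes. The exception was Plxnb3, at 0.591 coding TPM in replicate 1 and 1.59 in replicate 2. The median member level was 39.8 ± 0.98 coding TPM (SD, n = 2 libraries), beside 8.13 ± 0.95 over all protein-coding genes. In both libraries 25 members reached 10 coding TPM, and 15 members stood in the upper 25% of protein-coding genes. The highest mean was 111.2 times the lowest.

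**Figure D1:**
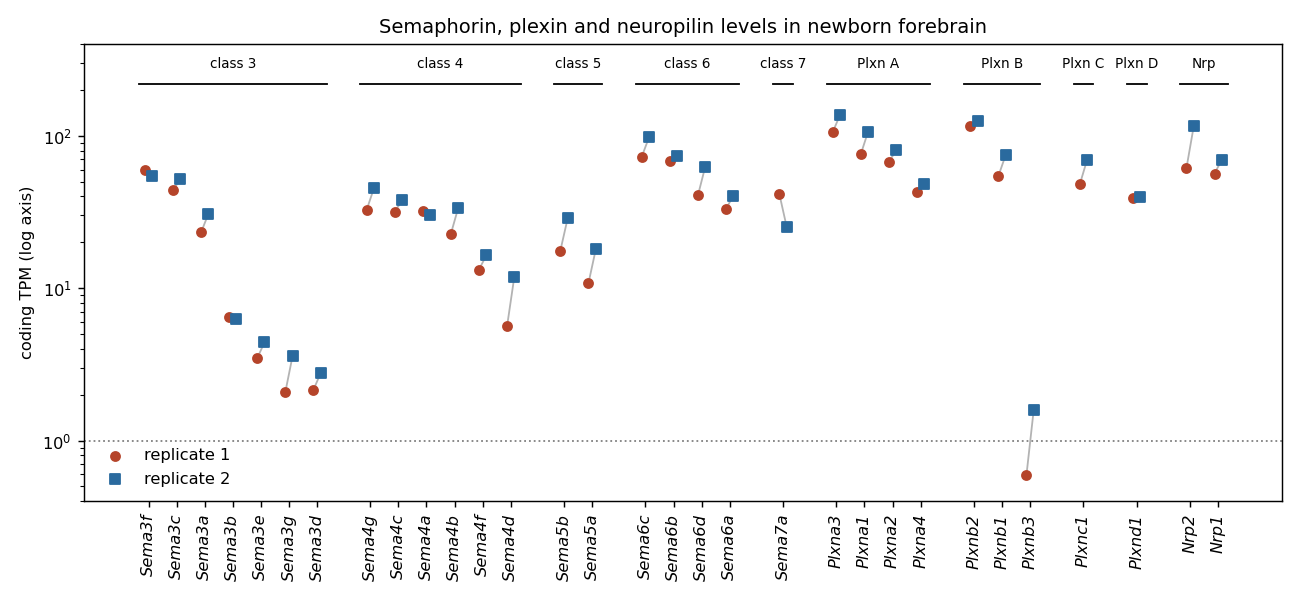
Coding TPM (log axis) of the 31 family members in replicate 1 (circles) and replicate 2 (squares), grouped by class and ordered by mean level within a class. The dotted line marks 1 coding TPM, and the lowest point is Plxnb3 at 0.591 in replicate 1.

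The class 3 semaphorins are secreted and act mostly through a neuropilin and a type A plexin. Sema3f, which repels axons through Nrp2, was the highest over all transcripts, at 59.5 coding TPM in replicate 1 and 54.5 in replicate 2. Sema3c, known for attracting callosal axons, followed at 43.9 coding TPM in replicate 1 and 51.8 in replicate 2. Counting protein-coding transcripts alone, Sema3c had the higher mean (45.3 against 41.8), and the order changed between the libraries. Sema3f then had 46.6 in replicate 1 and 37.0 in replicate 2, and Sema3c 40.0 and 50.5. Sema3a, the founding repellent that binds Nrp1, had 23.2 coding TPM in replicate 1 and 30.6 in replicate 2.

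The other 4 secreted members were much lower. Sema3b, which takes part in positioning the anterior commissure, had 6.42 coding TPM in replicate 1 and 6.27 in replicate 2. Sema3e, which binds Plxnd1 without a neuropilin, had 3.47 coding TPM in replicate 1 and 4.40 in replicate 2. Sema3g, a semaphorin known from endothelial cells, had 2.07 coding TPM in replicate 1 and 3.59 in replicate 2. Sema3d, known for roles in heart and vessel development, had 2.14 coding TPM in replicate 1 and 2.77 in replicate 2. These 4 genes rested on 195 to 497 counts in replicate 1 and 264 to 690 in replicate 2. The exact 95% Poisson intervals of Sema3g, which cover counting error only, were 1.79 to 2.38 coding TPM in replicate 1 and 3.23 to 3.97 in replicate 2, and did not overlap.

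Secreted semaphorin genes that lie close together differed widely in level. Sema3b (chr9:107597674-107609229) and Sema3f (chr9:107681500-107710475) lie 72.3 kb apart on mm10, both on the minus strand, and the coding TPM of Sema3f was 9.26 times that of Sema3b in replicate 1 and 8.70 times in replicate 2. On chromosome 5, Sema3d, Sema3a and Sema3e lie in that order with gaps of 0.536 and 0.423 Mb. The middle gene, Sema3a, had 10.8 times the coding TPM of Sema3d in replicate 1 and 11.1 times in replicate 2. Against Sema3e it had 6.68 times in replicate 1 and 6.96 times in replicate 2.

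Sema3f carried an alternative coding exon of 93 nt, or 31 codons, at chr9:107691356-107691448 on the minus strand. It is shown because transcripts with and without it were both abundant, with the exon in capitals and 12 nt of its neighbours on each side in lower case, from GENCODE M21 transcripts on mm10.
Sema3f-204: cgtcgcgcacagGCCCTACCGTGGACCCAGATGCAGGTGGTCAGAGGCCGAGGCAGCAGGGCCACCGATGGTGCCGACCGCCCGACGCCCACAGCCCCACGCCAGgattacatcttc
Protein-coding transcripts with the exon held 49.6% of Sema3f coding-transcript TPM in replicate 1 and 49.9% in replicate 2. Between the 2 longest protein-coding transcripts alone, the form with the exon (Sema3f-204) held 67.1% of the pair in replicate 1 and 56.5% in replicate 2. Sema3f-201 held the rest. The first measure also counts short partial coding transcripts, the largest being Sema3f-206 of 685 nt, without the exon, which held 21.1% of the gene in replicate 1 on 120 counts and 8.87% in replicate 2 on 48.4 counts.

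The class 4 semaphorins are transmembrane proteins with receptors mainly among the type B plexins, and 3 of them (Sema4b, Sema4c and Sema4f) are known to bind the synaptic scaffold PSD-95. Sema4g, a ligand of Plxnb2, had 32.6 coding TPM in replicate 1 and 45.4 in replicate 2. Sema4c, another Plxnb2 ligand, had 31.8 coding TPM in replicate 1 and 37.6 in replicate 2. Sema4a, best known from immune cells and the retina, had 31.9 coding TPM in replicate 1 and 30.3 in replicate 2. The library ranges of Sema4g and Sema4c overlapped, as did those of Sema4c and Sema4a, and Sema4g lay above Sema4a in both libraries.

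Sema4b had 22.7 coding TPM in replicate 1 and 33.6 in replicate 2, and Sema4f had 13.2 in replicate 1 and 16.4 in replicate 2. Sema4d, the ligand of Plxnb1, was the lowest of the class at 5.61 coding TPM in replicate 1 and 11.9 in replicate 2. Its counts were 439 in replicate 1 and 1013 in replicate 2. The class 5 semaphorins, transmembrane proteins with thrombospondin repeats that restrain retinal neurites, were of middling level. Sema5b had 17.6 coding TPM in replicate 1 and 28.7 in replicate 2, and Sema5a had 10.8 in replicate 1 and 17.9 in replicate 2.

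The class 6 semaphorins, transmembrane proteins that act as ligands of type A plexins and can also signal into their own cell, were the most abundant ligand class. Sema6c had 73.0 coding TPM in replicate 1 and 98.0 in replicate 2, the highest semaphorin level in both libraries. Sema6b, a ligand of Plxna4, had 68.5 coding TPM in replicate 1 and 73.1 in replicate 2. Sema6d, which signals through Plxna1, had 40.7 in replicate 1 and 62.6 in replicate 2.

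Sema6a, a ligand of Plxna2 and Plxna4, had 33.1 coding TPM in replicate 1 and 40.5 in replicate 2. The 4 genes summed to 215 coding TPM in replicate 1 and 274 in replicate 2, which was 38.2% of all semaphorin TPM in replicate 1 and 40.6% in replicate 2. The only class 7 member, Sema7a, is anchored by a GPI lipid and promotes axon growth through integrins. Sema7a had 41.4 coding TPM in replicate 1 and 25.3 in replicate 2, the largest excess in replicate 1 among the members.

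Sema6d transcripts differed in at least 3 blocks of the coding region. The exons of 57 nt (chr2:124660705-124660761) and 168 nt (chr2:124662204-124662371), both on the plus strand, are shown because about as much of the gene carried each as lacked it. Capitals mark the exon, and the second begins where the first ends in transcripts that hold both.
Sema6d-206, 57-nt exon: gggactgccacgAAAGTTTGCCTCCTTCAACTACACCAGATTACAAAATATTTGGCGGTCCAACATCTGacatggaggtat
Sema6d-206, 168-nt exon: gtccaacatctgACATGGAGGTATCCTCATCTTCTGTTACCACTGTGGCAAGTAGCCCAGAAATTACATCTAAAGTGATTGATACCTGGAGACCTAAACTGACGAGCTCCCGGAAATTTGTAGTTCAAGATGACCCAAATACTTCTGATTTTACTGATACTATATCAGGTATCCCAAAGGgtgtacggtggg
The 57-nt exon, of 19 codons, was in 55.1% of Sema6d coding-transcript TPM in replicate 1 and 52.0% in replicate 2. The 168-nt exon, of 56 codons, was in 53.7% in replicate 1 and 43.6% in replicate 2. This share counts only transcripts with the exact 168-nt block. Sema6d-207, at 1.70 coding TPM in replicate 1 and 2.45 in replicate 2, was counted as lacking it. Its coding length of 3207 nt is not accounted for by the 3 blocks, and that further difference was not resolved. A 39-nt extension upstream (chr2:124660244-124660282) was the minority form, at 9.15% in replicate 1 and 14.9% in replicate 2. The leading transcript, Sema6d-206, carries both longer exons and held 37.1% of the gene in replicate 1 and 29.0% in replicate 2. The second, Sema6d-208, carries none of the 3 and held 25.8% in replicate 1 and 28.6% in replicate 2.

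Receptors were more abundant per gene than ligands. The median of the 11 receptors was 65.5 ± 12.9 coding TPM (SD, n = 2), beside 29.0 ± 2.12 for the 20 semaphorins. The semaphorins summed to 564 coding TPM in replicate 1 and 675 in replicate 2, and the receptors to 665 in replicate 1 and 868 in replicate 2. Ligand over receptor was thus 0.847 in replicate 1 and 0.778 in replicate 2, with a mean of 0.813 ± 0.0488 (SD, n = 2). Both libraries lay below 1, and no test over genes was made, since genes are not replicates. On expected counts not divided by length the same ratio was 0.463, the median gene length being 6576 nt for receptors and 3945 nt for semaphorins.

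The type A plexins, the signalling partners of neuropilins and receptors for class 6 semaphorins, made up the largest receptor class. Plxna3, which serves Sema3f signalling with Nrp2, had 105 coding TPM in replicate 1 and 137 in replicate 2. Plxna1 had 75.6 coding TPM in replicate 1 and 106 in replicate 2. Plxna2, a receptor of Sema6a, had 67.1 in replicate 1 and 80.4 in replicate 2.

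Plxna4, a partner of Nrp1 in the Sema3a response, was the lowest of the type A plexins at 42.5 coding TPM in replicate 1 and 48.2 in replicate 2. The 4 genes held 43.7% of receptor TPM in replicate 1 and 42.9% in replicate 2. Among the annotated antisense genes of Plxna4, Plxna4os1 had 3 counts in replicate 1 and 1 in replicate 2, and the other 2 had 0 in both.

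Of the type B plexins, Plxnb2, a regulator of progenitor proliferation and migration, had 115 coding TPM in replicate 1 and 125 in replicate 2. It ranked 1608 of 21474 protein-coding genes in replicate 1 and 1510 in replicate 2. Plxnb1, the receptor of Sema4d, had 54.3 in replicate 1 and 74.6 in replicate 2. Plxnb3, a receptor of Sema5a, rested on 65 counts in replicate 1 and 166 in replicate 2. Plxnb3 (chrX:73757090-73772514) lies 0.557 Mb from Plxna3 (chrX:74329066-74344689), and Plxna3 had 178 times its coding TPM in replicate 1 and 86.3 times in replicate 2.

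Plxnc1, the receptor of Sema7a, had 47.9 coding TPM in replicate 1 and 69.3 in replicate 2. Plxnd1 is the receptor of Sema3e, with roles in vessels and in striatal and cortical wiring. It was the most even receptor in coding TPM, at 39.1 in replicate 1 and 39.9 in replicate 2, but not in the scaled counts compared below. The 2 neuropilins differed in how far the libraries lay apart. Nrp1, which binds Sema3a and VEGF, had 56.4 coding TPM in replicate 1 and 69.6 in replicate 2. Nrp2, which binds Sema3f and Sema3c, had 61.2 in replicate 1 and 115 in replicate 2.

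Plexins summed to 4.65 times the neuropilins in replicate 1 and 3.69 times in replicate 2, a mean of 4.17 ± 0.683 (SD, n = 2). With protein-coding transcripts alone, the ratio was 3.28, and without the highest gene on each side (Plxna3 and Nrp2) it was 7.84. Membrane-bound semaphorins of classes 4 to 7 summed to 3.01 times the secreted class 3 in replicate 1 and 3.39 times in replicate 2, a mean of 3.20 ± 0.268 (SD, n = 2). Class 3 itself summed to 141 coding TPM in replicate 1 and 154 in replicate 2, and class 4 to 138 in replicate 1 and 175 in replicate 2.

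**Figure D2:**
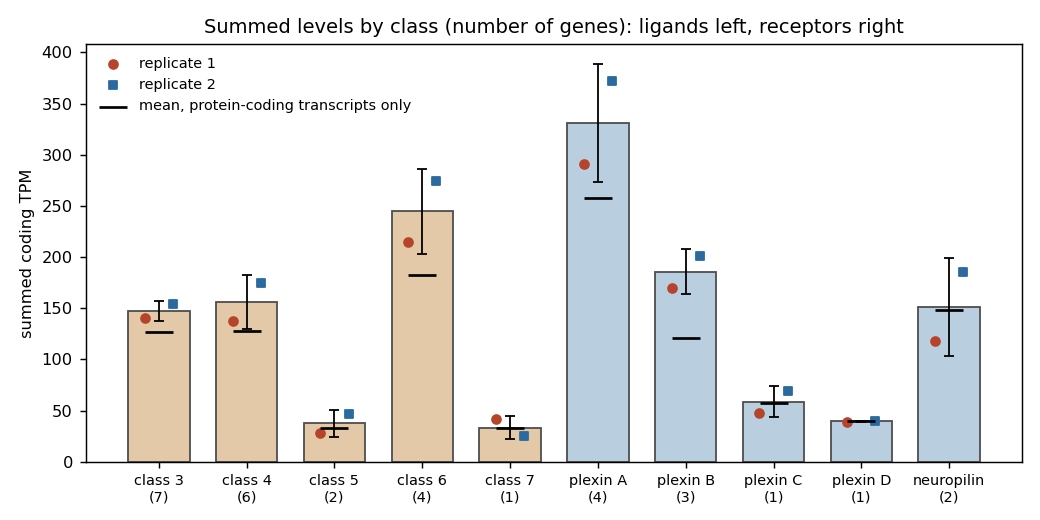
Summed coding TPM of each class (bars, mean of 2 libraries, with SD), with replicate 1 as circles and replicate 2 as squares, semaphorin classes left of the receptors. Black dashes give the mean over protein-coding transcripts alone, which is 258 for the type A plexins and 121 for the type B plexins, against 331 and 186 over all transcripts.

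Ordered by mean level, most neighbouring genes could not be separated. Of the 30 neighbouring pairs, 12 had the same order in both libraries and 5 had library ranges that did not overlap. Those 5 breaks lay between Plxnb2 and Plxna1, Plxna4 and Plxnd1, Sema5b and Sema4f, Sema3b and Sema3e, and Sema3d and Plxnb3. Plxna3 and Plxnb2, the highest, differed by 1.01-fold in mean and changed places between the libraries. This order is over all transcripts, and not every break held in protein-coding transcripts alone. There Plxnb2 (55.8 coding TPM in replicate 1, 73.4 in replicate 2) lay below Plxna1 (75.6 and 106). Sema3b (3.62 and 3.45) and Sema3e (3.25 and 4.31) changed places between the libraries. The range of Sema5b (13.7 and 23.2) overlapped that of Sema4f (12.8 and 14.3).

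Known ligands were set against their receptors within each library, over 12 pairs named from textbook knowledge. The receptor exceeded the ligand in both libraries in 10 pairs. Sema3a stood at 0.411 of Nrp1 in replicate 1 and 0.440 in replicate 2. Sema3e stood at 0.0888 of Plxnd1 in replicate 1 and 0.111 in replicate 2, and Sema4d at 0.103 of Plxnb1 in replicate 1 and 0.159 in replicate 2. These 2 pairs had the widest excess of receptor.

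In mean ratio, the class 6 pairs listed lay nearer to 1 than Sema3a, Sema3e and Sema4d with their receptors. This was not particular to class 6. Sema6d over Plxna1 averaged 0.563, below Sema3f (0.722) and Sema3c (0.583) over Nrp2 and Sema7a over Plxnc1 (0.615). Sema6a was set against Plxna4 only, not against the higher Plxna2. Sema6a stood at 0.779 of Plxna4 in replicate 1 and 0.840 in replicate 2, and Sema6d at 0.538 of Plxna1 in replicate 1 and 0.589 in replicate 2. Sema6b exceeded Plxna4, at 1.61 times in replicate 1 and 1.52 times in replicate 2. The other pair with more ligand was Sema5a and Plxnb3, at 18.3 times in replicate 1 and 11.3 times in replicate 2, with Plxnb3 near 1 coding TPM.

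Ratios with Nrp2 and with Sema7a differed most in size between the libraries among the pairs nearer to 1. Sema3f stood at 0.972 of Nrp2 in replicate 1 and 0.472 in replicate 2, so the pair was near parity only in replicate 1. Sema3c stood at 0.717 of Nrp2 in replicate 1 and 0.449 in replicate 2. It was not set against Nrp1, which had 56.4 coding TPM in replicate 1 and 69.6 in replicate 2. Sema7a stood at 0.864 of Plxnc1 in replicate 1 and 0.365 in replicate 2. Ratios of whole-tissue levels do not say whether a ligand and its receptor were in neighbouring cells.

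**Figure D3:**
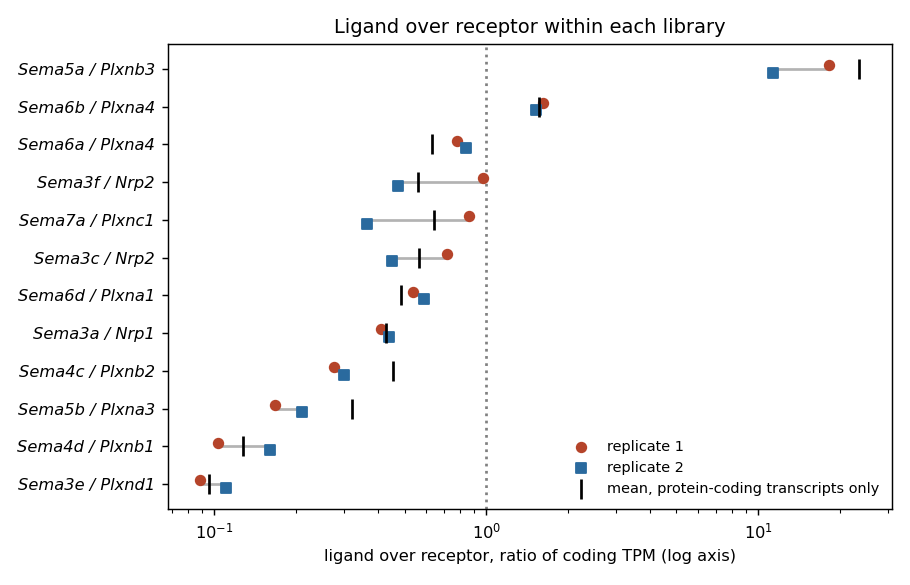
Ratio of ligand to receptor coding TPM (log axis) for 12 pairs, with replicate 1 as circles, replicate 2 as squares and the mean over protein-coding transcripts as black ticks. The dotted line marks equal levels: Sema6b over Plxna4 and Sema5a over Plxnb3 lie above 1, and the other 10 pairs lie below it in both libraries.

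Nrp2 transcripts differ just before the membrane-spanning segment and at the C terminus. Both inserts before the membrane enter the coding region at the same junction, and they are shown because they separate the known Nrp2 forms. The 51-nt exon of 17 codons lies at chr1:62812534-62812584 and the 15-nt extension of 5 codons at chr1:62786302-62786316, on the plus strand. Capitals mark the insert.
Nrp2-202, 51-nt exon: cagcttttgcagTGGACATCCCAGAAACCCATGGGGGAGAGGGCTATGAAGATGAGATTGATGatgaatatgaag
Nrp2-203, 15-nt extension: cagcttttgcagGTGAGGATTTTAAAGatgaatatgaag
Among transcripts with the a-type end, the 51-nt exon was in 45.1% of TPM in replicate 1 and 40.6% in replicate 2. The 15-nt extension was in 6.36% of Nrp2 coding-transcript TPM in replicate 1 and 14.5% in replicate 2. The b-type end, which has a different membrane and intracellular region, held 11.9% in replicate 1 and 15.2% in replicate 2. The leading transcript, Nrp2-204, has an a-type end and neither insert, and held 44.1% of the gene in replicate 1 and 38.6% in replicate 2. Nrp2-202, with the 51-nt exon, was second at 35.3% in replicate 1 and 30.3% in replicate 2.

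Transcript composition changed the picture for the highest receptors. Plxnb2-205, an 841-nt transcript annotated as noncoding, held 44.2% of Plxnb2 TPM in replicate 1 on 663 counts and 35.3% in replicate 2 on 608 counts. The coding transcript Plxnb2-202 held 47.1% in replicate 1 on 7297 counts and 57.8% in replicate 2 on 10633 counts. Short transcripts weigh more in TPM than in counts. In Plxna3, the coding transcript Plxna3-201 held 46.9% in replicate 1 and 46.3% in replicate 2, and retained-intron transcripts held 50.7% in replicate 1 and 53.1% in replicate 2.

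Counting protein-coding transcripts alone, Plxna3 averaged 56.5 coding TPM and Plxnb2 64.6, against 121 and 120 over all transcripts. Plxna1, whose transcripts are all coding, then led the family at 91.0 coding TPM, followed by Nrp2 at 84.9 and Sema6b at 70.8. Sema6c averaged 38.5 coding TPM on that measure, against 85.5 over all transcripts, so Sema6b and not Sema6c was the highest semaphorin.

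Over the 25 members with at least 2 annotated transcripts, 5 had under 70% of their TPM in coding transcripts in both libraries. They were Sema6c, Plxna3, Plxnb2, Sema3b and Plxnb3. With a minimum of 100 counts in both libraries, which leaves out Plxnb3, it was 4 of 24 (16.7%), near the 15.0% of 9299 protein-coding genes with at least 2 transcripts and 100 counts. The other 6 members had 1 annotated transcript each, among them Nrp1, Plxna4, Sema5a and Sema7a.

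**Figure D4:**
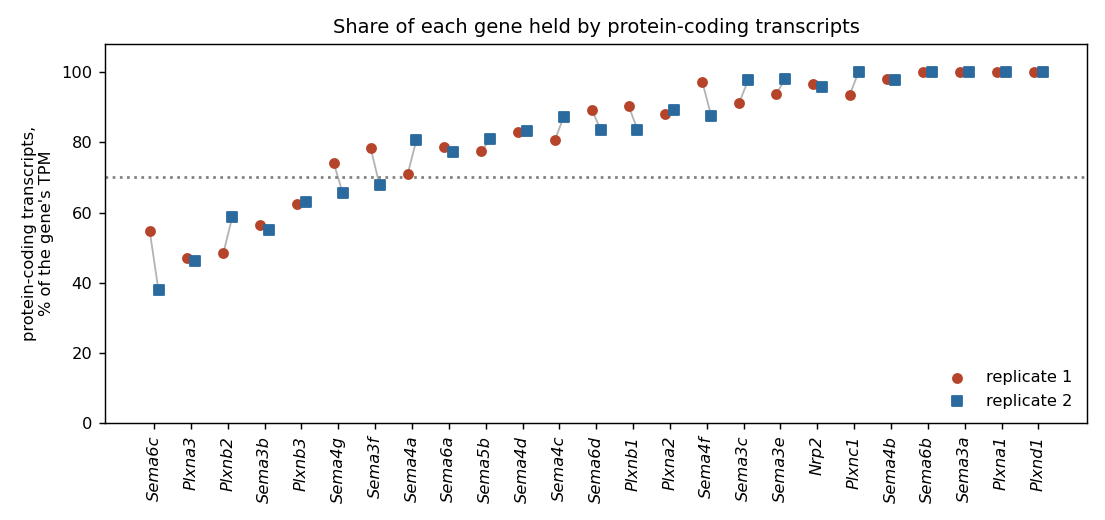
Percent of each gene's TPM held by its protein-coding transcripts in replicate 1 (circles) and replicate 2 (squares), for the 25 members with at least 2 annotated transcripts. Plxna3 is lowest in replicate 1 at 46.9% and Sema6c in replicate 2 at 37.8%, and the dotted line marks 70%.

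The leading transcript was stable in most members. Of 24 members with at least 2 transcripts and 100 counts in both libraries, 21 had the same leading transcript in replicate 1 and replicate 2. The same share over all protein-coding genes was not computed, so this is not given as a trait of the family. In Sema4c the lead in replicate 1 was narrow, at 26.9% for Sema4c-201 against 25.8% for Sema4c-208. In 23 of the 24 members the leading transcript was protein-coding in both libraries. The exception was Sema6c, led by the coding Sema6c-201 (38.5%) in replicate 1 and by Sema6c-211 (27.7%), a 450-nt noncoding transcript with 118 counts, in replicate 2. Sema6c-201 was close behind in replicate 2, at 27.5% on 2372 counts.

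Sema6a and Sema4d also changed leader. Sema6a-202 led in replicate 1 at 26.2%, against 22.7% in replicate 2, and Sema6a-201 led in replicate 2 at 27.3%, against 17.6% in replicate 1. Their coding lengths are 2928 and 3093 nt, so they differ in protein. Sema4d-201 held 55.5% in replicate 1 and 34.3% in replicate 2, and Sema4d-202 held 27.3% in replicate 1 and 45.7% in replicate 2. These Sema4d transcripts share the same coding sequence, which as a whole held 82.8% in replicate 1 and 83.2% in replicate 2.

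Several class 4 genes likewise divided into transcripts with a common coding sequence. Sema4c-201 held 26.9% in replicate 1 and 72.4% in replicate 2, while the coding sequence it shares with 3 other transcripts held 79.9% in replicate 1 and 83.3% in replicate 2. Sema4g-201 held 49.3% in replicate 1 and 49.4% in replicate 2. The coding sequence it shares with Sema4g-203 held 74.0% in replicate 1 and 65.5% in replicate 2. The nonsense-mediated decay transcript Sema4g-202 was second, at 26.0% in replicate 1 and 34.5% in replicate 2. Sema4a-213 held 55.8% in replicate 1 and 54.6% in replicate 2. The coding sequence it shares with Sema4a-201, Sema4a-214 and Sema4a-215 held 64.7% in replicate 1 and 80.8% in replicate 2. In mean share, the retained-intron Sema4a-211 was second, at 17.9% in replicate 1 and 7.40% in replicate 2. The Sema3b split was poorly measured. Sema3b-208, a 358-nt fragment, held 19.3% of the gene in replicate 1 on 3 counts and 0% in replicate 2, and Sema3b-202, the leader, held 39.1% in replicate 1 and 30.9% in replicate 2.

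The libraries were compared gene by gene with an exact two-sided binomial test on rounded expected counts scaled by TMM and adjusted by Benjamini-Hochberg over the 17544 genes averaging 10 or more counts. Only the reads of replicate 1 and replicate 2 are compared, not conditions, and log2 ratios are replicate 1 over replicate 2 with counting SE. All 31 members passed the filter. A gene was called at an adjusted p under 0.05 and a fold of at least 2, which 10.4% of genes met (4.94% higher in replicate 1 and 5.51% lower). The share was 7.30% of the 15187 tested protein-coding genes, and 2.77% of genes averaging 100 or more counts, a filter all members passed. Of the 31 members, 1 was called, Plxnb3, with a log2 ratio of -1.07 ± 0.21 and an adjusted p of 4.55e-07 by the exact binomial test. The call rests on 65 counts in replicate 1 and 166 in replicate 2, and was lost once the trend of the ratio with gene length was removed (log2 ratio -0.97).

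At a 1.5-fold threshold, 4 members were lower in replicate 1 (background 9.86%) and 1 was higher (background 9.95%). The lower ones were Plxnb3, Sema4d (log2 ratio -0.93 ± 0.08), Nrp2 (-0.75 ± 0.02) and Sema3g (-0.63 ± 0.13), and the higher one was Sema7a (0.87 ± 0.04). By the exact binomial test, the adjusted p was 3.57e-30 for Sema4d, 1.98e-06 for Sema3g and 8.41e-90 for Sema7a. Sema4d passed 2-fold when library totals replaced TMM (log2 ratio -1.12), a scaling that moved the median of all protein-coding genes to -0.19.

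The members leaned together towards lower values in replicate 1. Their median log2 ratio was -0.19, with 25 of 31 (80.6%) below 0, beside a median of 0.00 over tested protein-coding genes, of which 49.8% were below 0. The members are long genes, with a median of 4850 nt against 2643 nt. Among tested protein-coding genes of at least 4000 nt, the median was -0.12 and 2491 of 3561 were below 0. Of the 18 members of that length, 17 were lower in replicate 1, and of the 13 shorter members 8 were. With the length trend removed the member median was -0.11 and 22 members were below 0, and with length and GC trends removed it was -0.07 and 21 were.

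Levels and counts need not point the same way, since coding TPM and TMM scale the libraries differently. The gap was also present in genes with 1 annotated transcript. Plxna4 had 42.5 coding TPM in replicate 1 and 48.2 in replicate 2 at a log2 ratio of only -0.03. Nrp1 had 56.4 and 69.6 at -0.15. Differences between the libraries given in coding TPM thus depend on the scaling. Sema6c had the lower coding TPM in replicate 1, yet its scaled counts were higher there (log2 ratio 0.15 ± 0.03). Its protein-coding transcripts held 54.9% of its TPM in replicate 1 and 37.8% in replicate 2. Sema6b and Plxnd1 also had slightly lower coding TPM and slightly higher scaled counts in replicate 1, at log2 ratios of 0.06 ± 0.03 and 0.12 ± 0.03.

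**Figure D5:**
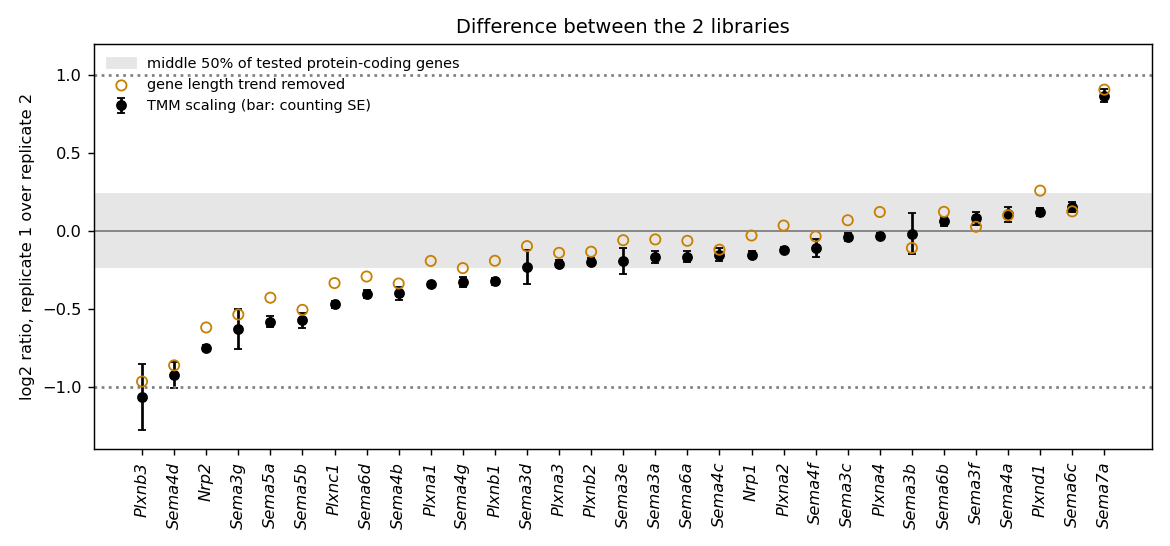
Log2 ratio of replicate 1 over replicate 2 per member with TMM scaling (filled, bar: counting SE) and with the gene length trend removed (open), over the middle 50% of tested protein-coding genes (grey, -0.23 to 0.24). Plxnb3, Sema4d and Nrp2 lie lowest, Sema7a alone lies far above the band, and dotted lines mark 2-fold.

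Among the marker lists, 3 moved one way with the library. Of all tested genes, 5.51% were called lower in replicate 1. The other marker lists with more than 1 tested gene went both ways, among them telencephalon (4 higher and 5 lower in replicate 1), radial glia (2 and 4) and choroid plexus (2 and 2). All 6 meningeal fibroblast markers were lower in replicate 1, with 3 called, and they summed to 292 coding TPM in replicate 1 and 783 in replicate 2. All 6 diencephalon markers were lower in replicate 1, with 4 called, summing to 32.6 coding TPM in replicate 1 and 60.9 in replicate 2. All 6 endothelial markers were also lower in replicate 1, with none called, summing to 215 coding TPM in replicate 1 and 278 in replicate 2. No marker in these 3 lists was at 0. The part of these differences in the Nrp2, Sema4d, Sema3g, Plxnb3 and Sema7a values was not tested.

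Genes around the family in the pathway were counted from 5 lists. Of 16 receptor partners, 13 were at 1 coding TPM or more in both libraries. The adhesion molecules Chl1 and L1cam, which associate with neuropilins, averaged 271 ± 17.5 and 233 ± 20.0 coding TPM, and Cntn2 averaged 99.0 ± 2.91 (SD, n = 2). The lowest was Timd2, a Sema4a receptor in mouse immune cells, at 0.0596 ± 0.0201. In this list 3 of 14 tested genes were called, all higher in replicate 1, beside 4.94% of all tested genes. They were Met, a growth factor receptor that couples to type B plexins (log2 ratio 1.32), and the microglial Trem2 (1.19) and Tyrobp (1.19). Trem2 rested on 185 counts in replicate 1 and 98 in replicate 2, and Tyrobp on 164 and 87. Of the 6 microglial markers listed, 4 were higher in replicate 1 and 2 were lower. Aif1 was called (1.07), on 42 counts in replicate 1 and 24 in replicate 2. The 6 markers summed to 189 coding TPM in replicate 1 and 207 in replicate 2. Their part in the Trem2 and Tyrobp values was not tested.

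All 24 cytoplasmic signalling genes were at 1 coding TPM or more in both libraries, with none called. The actin-severing cofilin Cfl1 averaged 1516 ± 175 coding TPM, the kinase Pak1 153 ± 3.95 and the GTPase Rac1 152 ± 15.7, and the lowest was the plexin-bound exchange factor Farp2 at 3.43 ± 1.19 (SD, n = 2). All 5 collapsin response mediator proteins, the cytosolic relays of Sema3a signalling, were present with none called. Dpysl2 averaged 1379 ± 113 coding TPM, Dpysl3 1374 ± 12.4, Crmp1 807 ± 24.4 and the lowest, Dpysl4, 119 ± 2.41. Each exceeded every semaphorin in mean coding TPM.

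All 7 proteases that cut semaphorins were present with none called. Mmp14 averaged 30.1 ± 9.10 coding TPM, Pcsk7 21.8 ± 0.64 and Adam10 19.8 ± 1.76, and Pcsk6 was lowest at 8.90 ± 1.41 (SD, n = 2). Of the 5 VEGF ligands that can compete for neuropilins, 4 were at 1 coding TPM or more in both libraries. Vegfa averaged 79.7 ± 15.8 coding TPM, above every secreted semaphorin, followed by Vegfb at 25.7 ± 2.30 and Vegfc at 5.57 ± 1.30. The lowest, Vegfd, was called higher in replicate 1 at 0.960 coding TPM, against 0.272 in replicate 2. The call rests on 37 counts in replicate 1 and 11 in replicate 2, and 4.94% of all tested genes were called higher there.

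Promoters were described for the 26 members found in the RefSeq promoter table of build GRCm38.p6, which covers 250 bases before to 50 bases after each start. A promoter with at least 50% G and C and an observed-over-expected CpG ratio of at least 0.6 was found in 16 of them (61.5%), and in 50.6% of 16317 protein-coding symbols. Among the secreted semaphorins matched, Sema3a, Sema3d, Sema3e and Sema3g lacked such a promoter and Sema3c had one.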

How the data were processed

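Stranded paired-end total RNA sequencing of 2 newborn forebrain libraries was used as quantified by the authors on mm10 with GENCODE M4, per the labels' accompanying text. Neither aligner nor quantifier is given in the sources consulted. The deposited tables give expected counts, TPM with interval bounds, FPKM, and for transcripts the percent of the gene's TPM, per the file headers. Of 43346 genes, 42462 were matched by identifier to GENCODE M21 on the same assembly, which supplied symbols, biotypes, coordinates and sequences. The expected counts of all 31 members were whole, with a deposited posterior SD of 0.

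Coding TPM rescales the deposited TPM to the protein-coding sum, by factors of 7.38 in replicate 1 and 4.54 in replicate 2. Means carry the SD over 2 libraries. Library sizes were scaled with TMM in edgeR 4.0.16, and rounded counts were compared by an exact binomial test in scipy 1.17.1, with 0.5 added for ratios. The script was tested on simulated data. Exon shares are sums of deposited transcript TPM over coding transcripts with and without the block. DESeq2 1.42.0 supplied alternative size factors.

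All members are named. Of each pathway list the 3 highest genes and the lowest are named, with any called. Aif1, a called marker, was named after its value was seen. The members and lists were chosen with earlier results of these data known. Counting only protein-coding transcripts, only transcripts of at least 2000 nt, and removing a joint length and GC trend were chosen after seeing the data.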

Additional observations from a re-analysis of the deposited data

How the results depend on the processing

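Ligand over receptor ranged from 0.778 to 0.847 with either library alone and was 0.463 on counts not divided by length. Plexin over neuropilin ranged from 3.69 to 4.65 with either library alone, was 3.28 with protein-coding transcripts only, 3.26 with transcripts of at least 2000 nt only, and 7.84 without the highest gene on each side. Membrane-bound over secreted semaphorins ranged from 3.01 to 3.39 and was 4.28 without the highest gene on each side (Sema6c and Sema3f). Members at the level threshold numbered 30, 30 to 31 with either library alone, 27 at 5 coding TPM and 25 on the deposited TPM with no rescaling.

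Members called between the libraries numbered 1, and 2 with library totals, 0 with the length trend removed, 0 with the length and GC trends removed, 5 at 1.5-fold and 25 with no fold threshold, which 65.4% of all tested genes passed. Counting protein-coding transcripts only moved 9 member levels by more than the spread between libraries, and transcripts of at least 2000 nt only moved 8. The 1 called library ratio, that of Plxnb3, kept its sign, but some uncalled ratios did not. With the length trend removed, the log2 ratio went from -0.119 to 0.035 for Plxna2 and from -0.032 to 0.122 for Plxna4. With library totals it went from 0.153 to -0.043 for Sema6c. The cause of these changes was not tested.

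With 2 libraries no replicated test is possible. Depth limits Plxnb3 and the lower class 3 genes most, and transcript shares of short fragments rest on few counts. The deposited interval lies above the deposited level for Sema4d in replicate 1 (from 6.23, level 5.61 coding TPM) and replicate 2 (from 12.2, level 11.9), and for Sema3b in replicate 2 (from 6.50, level 6.27). No paired analysis was possible because the design has 1 group of 2 libraries.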
